A study of Mus musculus with 7 samples.

Results

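The mtDNA junctions described here are read pairs that faced each other on the mitochondrial reference with more than 600 bp between their outer ends. They were chosen by 3 measured values in the lists of improperly paired reads of all 7 libraries: the insert size, the strand of each read and the order of the mapped positions. The upper limit on size was 99 bp below the mtDNA length that the files imply, 16299 bp. No test is therefore given for the sizes, strands or positions against other pairs. Pairs that shared both positions and strands entered as 1. Of 2014 unique listed pairs, 207 met this rule, and 163 of them came from the Deletor mouse, 31 from the 3 control hearts and 13 from the 3 dMfn KO hearts. The other pairs of the same size range faced outward (53 pairs) or had both reads on 1 strand (46 pairs).

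Mammalian mtDNA is a small circle that encodes 13 proteins of the oxidative phosphorylation system, 2 rRNAs and 22 tRNAs. Its control region holds the origin from which replication of the heavy strand starts, and promoters for transcription of both strands. Replication of the light strand starts at a short stem-loop, OL, among a group of tRNA genes between ND2 and COX1. A molecule that has lost a segment places the reads of a fragment over the join far apart on the intact reference while they still face each other. On a circle, duplication of the remaining arc gives the same join, so an inward pair gives the segment between its reads and not the kind of rearrangement. A feature is called spanned where it lay wholly between the inner ends of both reads, and outside where no part of it did.

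The question of the comparison was whether loss of outer membrane fusion leaves rearranged mtDNA in the heart. Control animals were littermates with Mfn1 loxP/loxP and Mfn2 loxP/loxP alleles and no Cre (Cre-), and dMfn KO animals were labelled Mfn1 -/-, Mfn2 -/- and Cre+. Both groups were C57BL/6N, 5 weeks old, and gave DNA from isolated heart mitochondria. Cre was driven by the Ckmm promoter, which is active in heart and skeletal muscle cells, so other cells of the heart keep both mitofusins. The Deletor mouse, 1 C57BL/6J animal of 20 weeks, was the positive control and gave total DNA from skeletal muscle. Its label names a duplication of residues 353 to 365 of Twinkle, the helicase that unwinds mtDNA during replication, whereas the text of the study names another Twinkle change and a legend gives the age of the hearts for this animal too. By the labels, tissue, age, strain and DNA preparation differed between this animal and the hearts and cannot be told apart from its genotype, so no test of the Deletor condition was made.

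Each heart library listed between 84 and 215 unique pairs, and the Deletor library listed 1171. Inward pairs over 600 bp were 10.4%, 5.12% and 2.59% of the control lists. They were 2.88%, 4.85% and 5.95% of the dMfn KO lists, and 13.9% of the Deletor list. Sequencing depth was not used here, and counts of pairs cannot be read as rates per mtDNA molecule. Gene positions came from the RefSeq mouse mtDNA of GRCm38.p6, and the files were taken to share its numbering. The mtDNA length was derived from the 2 most common sizes of long same-strand pairs, 16239 and 16359 bp, but a match of the study's reference to this gene table was not tested. Moving every gene by 100 bp in either direction left the Deletor share spanning OL, the share with both rRNA genes outside and the mean number of genes spanned within their 95% intervals. Counts for single genes were not recomputed in this way. Shares are given with Wilson 95% intervals. These hold counting error alone, because reads from the same molecule carried no identifier.

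In the Deletor muscle, inward pairs spanned most of the protein-coding genes, whereas the control region, and less often both rRNA genes, lay outside. In most heart pairs these features lay outside too, but the heart pairs were shorter, with a median of 5178.5 bp. Summed over the hearts, the control region lay wholly outside in 39 of 44 pairs (88.6%). Both rRNA genes did so in 31 (70.5%). Among pairs from 7000 to 14000 bp, both rRNA genes lay outside in 5 of 12 heart pairs and 105 of 158 Deletor pairs. The 163 pairs had a median insert size of 11083 bp, with quartiles at 9769 and 11967.5 bp and a range of 1339 to 13955 bp. The median pair spanned 11 of the 13 protein-coding genes, and the mean was 10.3. At least 9 genes were spanned in 154 pairs (94.5%, 95% interval 89.8 to 97.1), all 13 in 10 pairs and none in 1 pair. Of the 22 tRNA genes, the median pair spanned 17. The rest of the circle, outside both reads, had a median length of 5216 bp.

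**Figure D1:**
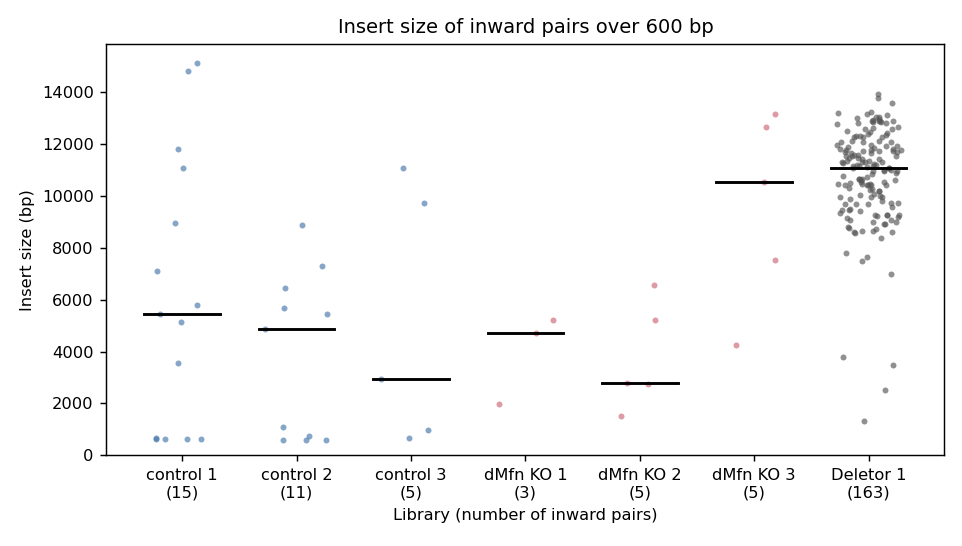
Insert size in bp (vertical axis) of every inward pair over 600 bp, by library, with the number of pairs in brackets; each point is 1 pair and the black line is the median of the library. The Deletor pairs gather around a median of 11083 bp, whereas the pairs of the 6 hearts are few and spread from 601 to 15140 bp.

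The genes in the middle of the reference were spanned in nearly all Deletor pairs. ATP6, a subunit of the ATP synthase, was spanned in 160 of 163 pairs (98.2%, 95% interval 94.7 to 99.4), and ATP8, the other mtDNA-encoded subunit of this enzyme, in 159. The 3 catalytic-core subunits of cytochrome c oxidase (complex IV) were spanned in 149 pairs for COX1, 157 for COX2 and 158 for COX3. All 3 were spanned together in 147 pairs (90.2%). Positions 7821 to 9176, numbered as in the files, lay between the reads of 160 pairs, and positions 6417 to 11166 between those of at least 155.

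The insert size itself sets part of this pattern, because a long segment on a linear reference covers its middle wherever it lies. With the reference ending at the last mapped base, 16898, the size alone fixed that ATP6 was spanned in 144 of the 163 pairs and ATP8 in 139. For COX1 the size fixed 59 pairs, and 90 of the other 104 spanned it as well. OL was fixed by size in 51 pairs, and 96 of the other 112 spanned it. With the reference ended at the mtDNA length, 16299, OL was fixed in 79 pairs and 68 of the other 84 spanned it, and COX1 was fixed in 85 pairs and 64 of the other 78 spanned it. For ATP6 and ATP8 these counts of fixed pairs were 151 and 154.

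**Figure D2:**
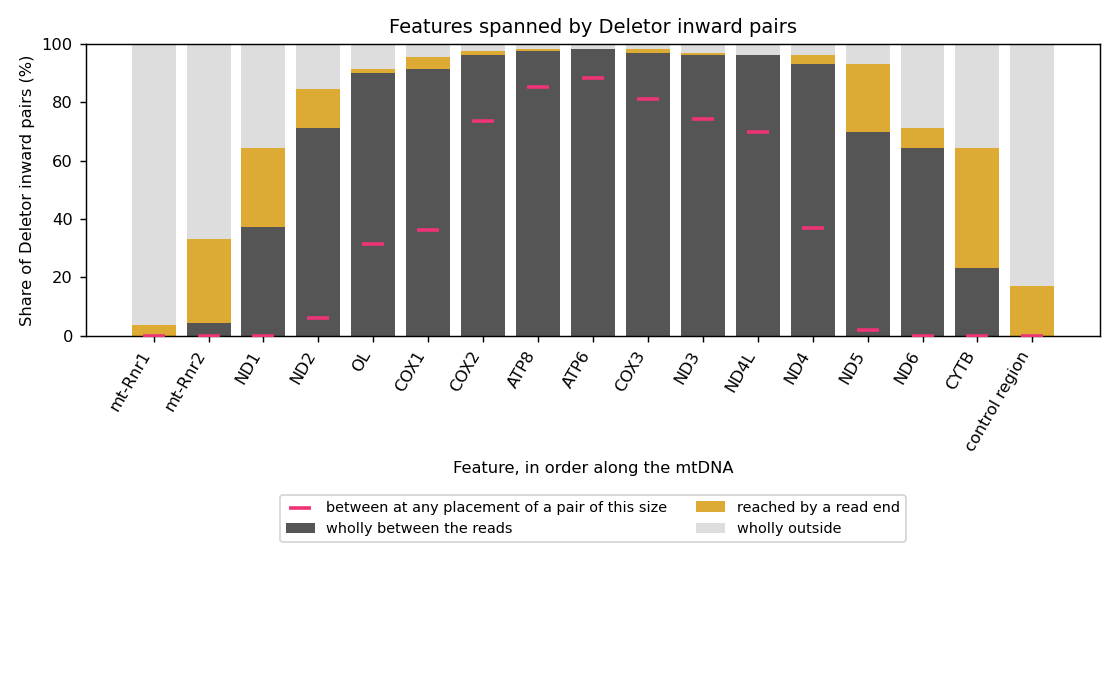
Share of the 163 Deletor inward pairs (vertical axis, percent) in which each feature, in order along the mtDNA, lay wholly between the reads, was reached by a read end, or lay wholly outside. The red dashes give the share in which the insert size alone places the feature between the reads at any position on the reference. ATP6 was spanned in 98.2% of pairs, most of them fixed by size, whereas OL was spanned in 90.2%, with 51 pairs fixed by size on a reference ending at the last mapped base, and the rule itself leaves almost no pair that could span mt-Rnr1 or the control region, at the ends of the numbering.

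The 7 genes of complex I, the NADH dehydrogenase, lie on both sides of the molecule and were spanned to different degrees. ND3, ND4L and ND4 were spanned in 157, 157 and 152 pairs. ND2 was spanned in 116 pairs (71.2%, 95% interval 63.8 to 77.6), ND5 in 114 (69.9%, 62.5 to 76.5) and ND6, the only protein encoded on the light strand, in 105 (64.4%, 56.8 to 71.4). ND1, the first protein gene after the rRNAs, was spanned in 61 pairs (37.4%, 30.4 to 45.1). At least 1 complex I gene was spanned in 161 pairs, and all 7 were spanned in 26.

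CYTB, the single mtDNA-encoded subunit of complex III, was spanned least often of the 13 genes, in 38 pairs (23.3%, 95% interval 17.5 to 30.4). In 67 further pairs a read end lay within it. CYTB lies towards the end of the numbering, and size alone fixed its spanning in 0 pairs. The most frequent set of spanned genes left out ND1 and CYTB and held the other 11, in 28 pairs (17.2%). The next set, in 25 pairs, ran from ND1 to ND4 and left out ND5, ND6 and CYTB.

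The rRNA genes mostly lay outside. The small rRNA gene, mt-Rnr1, lay wholly outside in 157 pairs and was spanned in 0. It lies beside TrnF at the start of the numbering, and only a forward read within the first bases could span it under the rule, so the 0 is largely fixed by the rule. The large rRNA gene, mt-Rnr2, was spanned in 7 pairs and lay wholly outside in 109, and a read end lay within it in 47. Both rRNA genes lay outside in 109 pairs (66.9%, 95% interval 59.3 to 73.6). Among tRNA genes, TrnK, between COX2 and ATP8, was spanned in 159 pairs. The tRNA genes beside the control region, TrnT and TrnP, were spanned in 36 and 28 pairs.

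The origins of replication differed in the same way. OL was spanned in 147 of the 163 Deletor pairs (90.2%, 95% interval 84.7 to 93.9), lay outside in 14 and was reached by a read end in 2. The control region lay wholly outside in 135 pairs (82.8%, 95% interval 76.3 to 87.8) and was reached by the reverse read in 28. It was spanned whole in none. Under the rule only a pair with its reverse read past 16299 could span it whole, and no Deletor pair had such a read. Segments that crossed the start of the numbering, with the reverse read mapped after that start, would give outward pairs and are not among the 163. In 123 pairs (75.5%, 95% interval 68.3 to 81.4) OL was spanned and the whole control region was outside. Both rRNA genes were outside as well in 75 of them.

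With a segment made 500 bp shorter at each end, about 1 library fragment, the share of Deletor pairs that spanned OL was 78.5%, and the mean number of protein-coding genes spanned was 9.50. The true join of a pair can lie about this far inside 1 read, but not inside both, because 1 fragment covers both sides of the join. The setting is therefore an outer limit, and the position of the join itself was not read. Both values are below the 95% intervals of the values reported above.

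The inner ends of the Deletor pairs gathered in a few genes. The insert sizes, which the rule used, limit where these ends can lie, so their densities are a description. The forward read, which lies before the segment, ended in mt-Rnr2 in 47 pairs, in ND1 in 44 and in ND2 in 23. Per kb of gene this was 46.0 ends in ND1, 29.7 in mt-Rnr2, 22.2 in ND2, 6.28 in mt-Rnr1 and 4.53 in COX1. A further 30 forward reads ended in tRNA genes. The reverse read, which lies after the segment, began in CYTB in 66 pairs, or 57.7 ends per kb. It began in ND5 in 37 pairs (20.3 per kb), in the control region in 28 (31.9 per kb) and in ND6 in 10 (19.3 per kb).

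In the Deletor library most reverse ends in the control region lay near TrnP. The rule used these positions, so this is a description. Of the 28, 26 lay within 200 bp of the end of TrnP, at a median distance of 68.5 bp, whereas the control region is 877 bp long. The last 2 lay up to 721 bp from TrnP. In the hearts 3 reverse ends lay in the control region, 373 to 876 bp from TrnP, and none lay within 200 bp. These 3 ends are too few for a comparison.

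The most frequent combination of ends was ND1 with CYTB, in 24 pairs (14.7%). It was followed by mt-Rnr2 with ND5 in 19 pairs (11.7%), mt-Rnr2 with CYTB in 13 (7.98%) and a tRNA gene with CYTB in 12 (7.36%). A forward end in ND2 went with a reverse end in CYTB in 9 pairs and in the control region in 7. The insert sizes, which the rule used, limit which features can be paired, so these counts are a description.

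**Figure D3:**
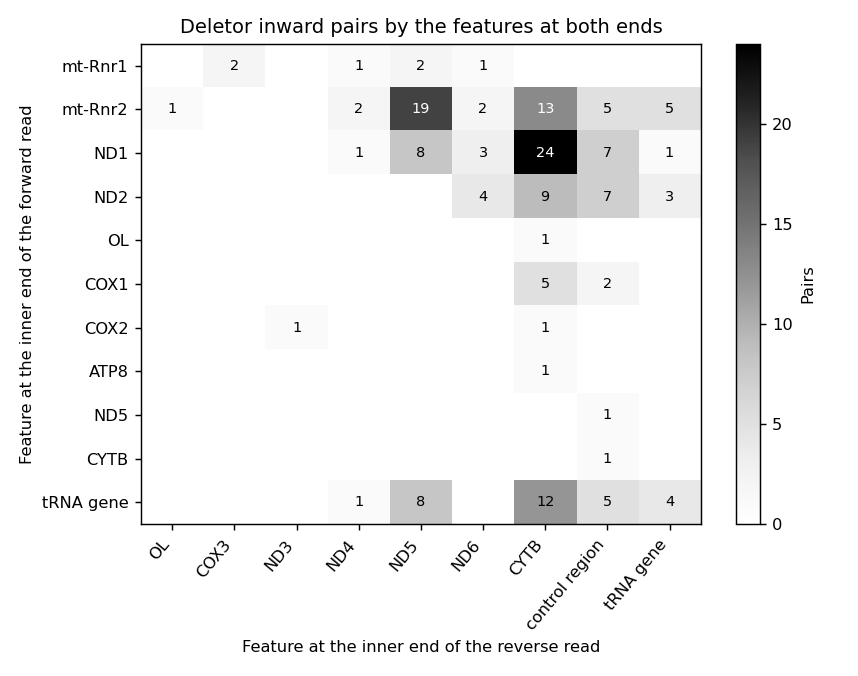
Number of Deletor inward pairs (grey scale and printed counts, 163 in all) by the feature at the inner end of the forward read (vertical axis) and of the reverse read (horizontal axis), with tRNA genes grouped last. ND1 with CYTB (24 pairs) and mt-Rnr2 with ND5 (19 pairs) are the fullest cells.

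In the Deletor library, recurrence was counted from read positions, because the join itself was not read. Positions of 2 fragments over the same join can differ by more than 100 bp, so these counts can miss shared joins. Copies with identical positions and strands were listed for 2 of the 163 pairs. Of the 163 pairs, 55 (33.7%) had another Deletor pair with both positions within 100 bp. No group of mutually close pairs held more than 3. The 8 such groups, which share pairs, lay in only 2 places. Forward reads at 3261 to 3327 in ND1 met reverse reads at 14545 to 14685 in CYTB, and forward reads at 2495 to 2733, from mt-Rnr2 through TrnL1 to the start of ND1, met reverse reads at 15360 to 15613, from TrnP into the control region.

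The 14 Deletor pairs that left OL outside had forward reads from position 5269 to 14824. Their median size was 8480.5 bp, and they spanned a median of 9 genes. Of the 5 Deletor pairs below 7000 bp, those of 1339, 2517, 3792 and 6997 bp were among them. The fifth, of 3473 bp, had its reverse end in OL. At the limits of the rule, the shortest Deletor pair of 1339 bp was followed by an inward pair of 587 bp outside it, and no Deletor inward pair lay above 13955 bp.

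In the hearts inward pairs were few, and both their sizes and the genes they spanned varied between animals. The controls held 15, 11 and 5 pairs and the dMfn KO animals 3, 5 and 5, a mean of 10.3 ± 5.03 (SD, n = 3) against 4.33 ± 1.15 (SD, n = 3). The ranges met at 5 pairs. The difference was -6 pairs (exact permutation test, two-sided, p = 0.3, adjusted p = 0.9 by Benjamini-Hochberg over the 5 heart comparisons). With 3 animals against 3 the smallest possible p is 0.1. No heart comparison could therefore pass the threshold of 0.05, whatever the data. The difference was -3.67 pairs without control replicate 1 and -2.33 pairs with a limit of 1000 bp. Relative to the unique pairs listed, the means were 6.04 ± 3.99% and 4.56 ± 1.55% (SD, n = 3 each, exact permutation test, p = 0.8, adjusted p = 0.9). The sign of this difference rested on control replicate 1, without which the dMfn KO share was higher by 0.71 percentage points. It also turned, to 0.65 percentage points, among pairs over 1000 bp.

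Short pairs occurred in the controls alone. The control animals held 5, 4 and 2 pairs of at most 1000 bp, the dMfn KO animals 0 each, and none of the 11 spanned a protein-coding gene. Pairs of such sizes cannot span the longer genes, such as COX1 of 1545 bp, so the size limit sets part of this. These sizes also lie near the upper end of ordinary fragments. In control replicate 2 the pair just inside the rule measured 601 bp and the one just outside 586 bp, and in dMfn KO replicate 1 a pair of 600 bp lay just outside. The pair of 601 bp, at positions 15770 and 16351, has its reverse read past 16299. The longest heart pair measured 15140 bp, and an inward pair of 16318 bp in control replicate 3 was outside the upper limit. Over 1000 bp the controls held 10, 7 and 3 pairs, and all dMfn KO pairs were of this size.

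The median insert size per animal was 5436, 4854 and 2949 bp for control animals and 4714, 2785 and 10558 bp for dMfn KO animals. The value of dMfn KO replicate 3 was above the other 5, which overlapped. The group means were 4413 ± 1301 and 6019 ± 4047 bp (SD, n = 3 each, exact permutation test, p = 0.9, adjusted p = 0.9). Without dMfn KO replicate 3 the difference (dMfn KO minus control) turned to -663.5 bp, and among pairs over 1000 bp it was -1792 bp (exact permutation test, p = 0.5).

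**Figure D4:**
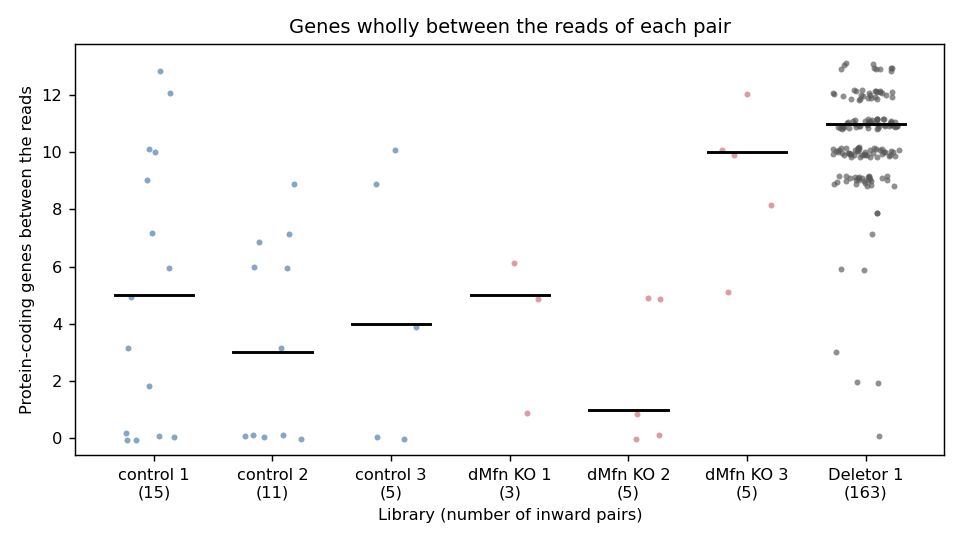
Number of the 13 protein-coding genes wholly between the reads of each inward pair (vertical axis), by library with the number of pairs in brackets; each point is 1 pair, moved slightly at random so that points do not hide each other, and the black line is the median of the library. Deletor pairs mostly span 9 to 13 genes, whereas heart pairs run from 0 to 13 and dMfn KO replicate 3 has the highest median of the hearts, 10.

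The mean number of protein-coding genes spanned per pair was 5.13, 3.45 and 4.6 for control animals and 4, 2.2 and 9 for dMfn KO animals. The dMfn KO animals lay on both sides of the controls. The group means were 4.40 ± 0.86 and 5.07 ± 3.52 genes (SD, n = 3 each, exact permutation test, p = 0.9, adjusted p = 0.9). Without dMfn KO replicate 3 the difference turned to -1.30 genes, and among pairs over 1000 bp it was -1.87 genes (exact permutation test, p = 0.4).

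OL was spanned in 7 of 15, 4 of 11 and 2 of 5 pairs of the control animals. It was spanned in 0 of 3, 1 of 5 and 3 of 5 pairs of the dMfn KO animals. As shares this gave 46.7%, 36.4% and 40% against 0%, 20% and 60%, and the dMfn KO values again lay on both sides of the controls. The group means were 41.0 ± 5.23% and 26.7 ± 30.6% (SD, n = 3 each, exact permutation test, p = 0.5, adjusted p = 0.9). The size of the difference, -14.3 percentage points, rested on single animals and on the settings. It was -1.01 percentage points without dMfn KO replicate 1, -31.0 without dMfn KO replicate 3 and -37.9 among pairs over 1000 bp (exact permutation test, p = 0.2). With gene positions moved 100 bp up it was -3.23 percentage points. The number of pairs limits these shares, since 0 of 3 has a 95% interval reaching 56.1%.

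The 17 heart pairs that spanned OL were of several kinds. In control replicate 1, the pair at positions 2413 and 5972 ran from mt-Rnr2 to COX1, and that at 4691 and 13632 ran from ND2 to ND6. In the same animal the pairs at 1383 and 12427 and at 1446 and 13240 had their ends in mt-Rnr2 and ND5, a combination also frequent in the Deletor library. The pair at 1 and 7086 began at TrnF and spanned both rRNA genes, as did the pair at 44 and 15164, which ended in CYTB. The pair at 1556 and 16359 spanned all 13 protein-coding genes and the control region, with its reverse read past 16299. No other of the 207 pairs spanned the whole control region.

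In control replicate 2 the pairs that spanned OL lay at 2590 and 7424, 4549 and 10208, 3082 and 9498, and 1580 and 8863, and each spanned from 3 to 7 protein-coding genes. In control replicate 3 they lay at 1820 and 11520 and at 2865 and 13932, with 9 and 10 genes spanned. dMfn KO replicate 2 held 1 such pair, at 1488 and 8034, from mt-Rnr2 to ATP6. dMfn KO replicate 3 held the other 3, at 4156 and 14694 (ND2 to CYTB), 922 and 13551 (mt-Rnr1 to ND5) and 1490 and 14628 (mt-Rnr2 to CYTB), which spanned 10, 10 and 12 genes.

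Summed over the hearts, ATP6 was spanned in 23 of 44 pairs (16 of 31 control pairs and 7 of 13 dMfn KO pairs), more than any other protein-coding gene. In the dMfn KO hearts alone, ND3 and ND4L were spanned in 8 of 13 pairs each. COX1 was spanned in 12 of 31 control pairs and 5 of 13 dMfn KO pairs, and ND4 in 10 and 7. ND5 was spanned in 5 and 4 pairs, ND6 in 3 and 3, and CYTB in 2 and 0. Both rRNA genes lay outside in 22 of 31 control pairs and 9 of 13 dMfn KO pairs. At least 1 complex I gene was spanned in 18 control pairs and 10 dMfn KO pairs, and at least 1 complex IV gene in 18 and 9. These are sums over few animals, and pairs of 1 animal are not independent replicates of its group.

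**Figure D5:**
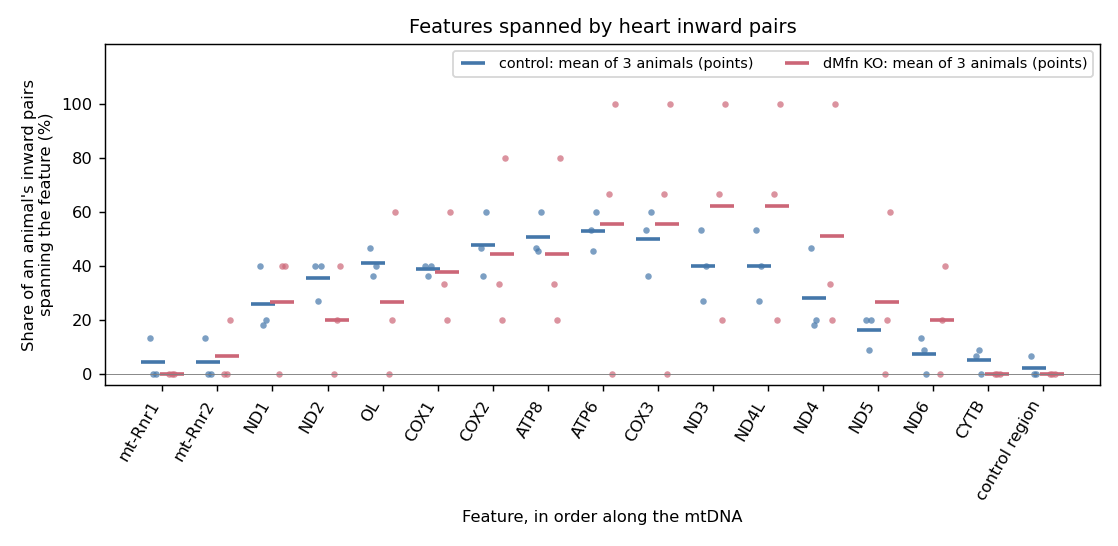
Share of each animal's inward pairs over 600 bp that spanned each feature (vertical axis, percent), in order along the mtDNA; points are the 3 animals of each group and dashes are group means. For OL the dMfn KO animals lie at 0%, 20% and 60%, on both sides of the controls at 36.4% to 46.7%.

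Of the heart pairs with sizes from 7000 to 14000 bp, where most Deletor pairs lay, there were 8 in controls and 4 in dMfn KO hearts. Their forward reads ended before ND1 in 7 of 12 pairs, against 60 of 158 Deletor pairs, and both rRNA genes lay outside in 5 of 12 (41.7%, 95% interval 19.3 to 68.0) against 105 of 158 (66.5%, 58.8 to 73.3). These intervals hold counting error over pairs and not variation between animals, so they cannot compare the conditions. Pairs of both heart groups were summed, and the size range was chosen from where most Deletor pairs lay. The difference was not tested. OL was spanned in 10 of the 12 heart pairs and in 147 of the 158 Deletor pairs.

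Among 753 comparisons of 2 inward pairs from different hearts, 0 had both positions within 100 bp, a limit that can miss fragments over the same join. Between hearts and the Deletor library, 3 of 7172 comparisons did. The pair at 2865 and 13932 in control replicate 3 met a Deletor pair at 2865 and 13994, with the same forward position. In dMfn KO replicate 3 the pair at 4156 and 14694 met a Deletor pair at 4158 and 14788, and that at 1490 and 14628 met one at 1470 and 14661. The read names place all 7 libraries on the same flow cell lane. The part of this in the 3 heart pairs that met a Deletor pair was not tested. Without them the difference in number between the heart groups was -6.33 pairs (exact permutation test, p = 0.2) and that in the share spanning OL was -18.2 percentage points (exact permutation test, p = 0.2).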

How the data were processed

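DNA of 3 control hearts, 3 dMfn KO hearts and 1 Deletor muscle was sequenced from both fragment ends. Nuclear reads were removed by the authors with Bowtie2 (2.1.0, NCBIM37), and the rest were mapped to a mitochondrial reference with BWA (0.6.2-r126), with trimming and remapping of unmapped reads. The deposited lists give, for pairs not properly paired, each read's flag, position, mate position and insert size in bp. Tool versions and build are from the submitters' processing notes. The lists hold no sequence, mapping quality or depth, and 1 lane served all libraries.

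Lines were joined by read name, and reads were taken as 20 bases long, the constant difference between insert size and distance. Genes came from the RefSeq table of GRCm38.p6 (37 genes), OL as the gap between TrnN and TrnC, and the control region as the stretch from TrnP to 16299. No coordinate of that table is printed. Sequences of the junctions are not shown, as no mitochondrial sequence was used here. Heart groups were compared by exact two-sided permutation tests over 20 divisions of the animals. The members, lists and limits were chosen with earlier results of these data known. Features were named by a rule: all protein-coding and rRNA genes, OL and the control region, with tRNA genes as a group; the tRNA genes named singly were chosen after their values were seen. Named pairs were those at the limits, heart pairs spanning OL, and pairs with both positions within 100 bp of those of another pair. Alternatives were a limit of 1000 bp, all copies, positions past 16299 placed at the start, segments 500 bp shorter at each end, a replicate block and leaving out each animal. Gene positions moved by 100 bp, heart pairs near Deletor pairs left out and the mtDNA length as the reference end for size-fixed counts were added after seeing the data. The joining and feature functions were tested on simulated data of 240 pairs, and all features of the 120 inward pairs were recovered. Scripts ran under Python 3.11.15 with networkx 3.6.1, matplotlib 3.10.9, scipy 1.17.1, numpy 2.4.6 and pandas 2.3.3.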

Additional observations from a re-analysis of the deposited data

How the results depend on the processing

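Under the alternatives p for the heart differences ran from 0.1 to 1 (exact permutation and sign-flip tests). With 3 animals per group none could go below 0.1, so none could pass the threshold of 0.05. With a limit of 1000 bp the difference (dMfn KO minus control) turned to 0.65 percentage points for the share of listed pairs, to -1792 bp for the median size and to -1.87 genes for the genes spanned, and the OL difference moved to -37.9 percentage points. Only controls lose pairs under this limit. No Deletor value could change with it, since the shortest Deletor pair measured 1339 bp. With segments 500 bp shorter at each end, the Deletor share spanning OL moved to 78.5% and the mean number of genes to 9.50. Leaving out 1 animal gave differences from -8.67 to -3.67 pairs in number, from -3.20 to 0.71 percentage points in share (above 0 without control replicate 1), from -663.5 to 3223 bp in size and from -1.30 to 2.10 genes (both below 0 without dMfn KO replicate 3), and from -31.0 to -1.01 percentage points for OL. Over the 39 features, deviations of animals with the same replicate number correlated at r = 0.53 for replicate 2, but at -0.23 and 0.03 for replicates 1 and 3, so the numbers were not taken to pair the animals. Blocked by replicate number, the differences keep their size by construction, -6 pairs in number, and the sign-flip p ran from 0.5 to 1, where 0.25 is the smallest that 3 pairs allow. Sequencing depth was not used, and 3 to 15 pairs per heart limit every share.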

Other observations

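In the Deletor library the forward read of an inward pair was read 1 in 86 of 163 pairs (52.8%, 95% interval 45.1 to 60.3), and in the hearts in 17 of 44 (38.6%, 25.7 to 53.4). Forward and reverse positions of the 163 Deletor pairs had a Pearson r of 0.36 and a Spearman rho of 0.40, over pairs of 1 library whose sizes share 1 range, given as a description. Inward pairs with a read past 16299 numbered 2 in the hearts, 1 each in control replicates 1 and 2, and 0 in the Deletor library.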
